A study of Mus musculus with 96 samples.

Results

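Lungs of Scx-/- mice were compared with lungs of wild-type mice, in 3 libraries of each genotype out of the 96 libraries of the series. The members are the lung libraries as named by genotype and tissue, and all 13746 genes with a count in at least 1 of these 6 libraries, out of 22493 genes with a count anywhere in the series and 41575 rows of the count table. The study profiled 16 tissues with MuSeq, a bulk RNA sequencing strategy in which every RNA sample receives its own barcode at reverse transcription, samples are pooled, and reads come mainly from the 3′ ends of polyadenylated transcripts. It asked how loss of Scx changes gene expression over the whole organism.

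All mice were 3 weeks old. The control group is labelled wild type, and the other group is labelled as the knockout, Scx-/-, with no Cre, promoter, or treatment named for either. Whole lungs were used, so fewer cells of a type and less RNA per cell cannot be told apart in any result. Strain, allele, and sex, as well as any sharing of mice between libraries, were not stated in the sources used, and p-values measure the spread between these libraries. In edgeR and DESeq2 the estimate of that spread is shared between genes.

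Scleraxis, the product of Scx, is a basic helix-loop-helix transcription factor best known for tendon and ligament formation, and factors of this class bind E-box motifs. The lung is lined by airway epithelium, with secretory club cells and ciliated cells, and by alveolar type 1 and type 2 cells, which form the gas exchange surface and make surfactant. Beneath these lie a dense capillary bed and a mesenchyme that lays down collagen and elastic fibres, the latter built largely in the first weeks after birth.

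Depth differed within each genotype, most in wild type. Wild-type libraries held 341964, 46732, and 53197 counts (replicates 1 to 3), and Scx-/- libraries held 120999, 227467, and 107301. Levels are given as CPM, each gene's counts scaled to a library total of 1000000. In this unit 1 count was worth 2.92, 21.4, and 18.8 CPM in the wild-type libraries and 8.26, 4.40, and 9.32 CPM in the Scx-/- libraries, so low levels were poorly resolved in wild-type replicates 2 and 3. A count of 0 allows up to 64.2 and 56.4 CPM in those libraries (3 counts), 8.77 CPM in wild-type replicate 1, and 13.2 to 28.0 CPM in the Scx-/- libraries, and such floors and intervals cover counting error only. Between 5503 and 10792 genes were detected per library (7294 ± 3030 in wild type and 8267 ± 1068 in Scx-/-, SD, n = 3 each; two-sided exact permutation p = 0.6, with 0.1 the smallest p that 3 against 3 allows). Each of the 6 libraries correlated best with another lung library among the 96. Surfactant gene Sftpc lay at 17460 to 23260 CPM in lung and at no more than 132 CPM in any other library, and secretoglobin Scgb3a2 at 899 to 1733 CPM against 6.81 CPM or less. The alveolar markers Sftpb and Ager were listed at 0 in all 96 libraries, lung included. The ribosomal RNA genes Rnr1, Rnr2, and Rn18s-rs5 took 1.42%, 2.14%, and 2.58% of the counts in wild-type and 1.35%, 1.36%, and 1.41% in Scx-/- libraries, apart by genotype (two-sided exact permutation p = 0.1), and the part of this in the results was not tested.

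Scx itself was near the floor of detection. Wild-type lung replicate 1 held 6 counts of Scx, at 17.6 CPM. The other wild-type libraries and all 3 Scx-/- libraries held 0. Pooled over the group, wild-type lung had 13.6 CPM, and Scx-/- lung was at least 2.06-fold lower when set at 3 counts over the group. This bound was 1.03-fold without Scx-/- replicate 2 and 1.52-fold without Scx-/- replicate 1. Without wild-type replicate 1 neither genotype held a count, so the genotype labels could not be checked on Scx in lung. The gene lies at chr15:76457452-76459458 on the plus strand of GRCm38, within Bop1 on the opposite strand.

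A single gene, Scgb1a1, reached an adjusted p under 0.05, which is 0.00727% of the 13746 genes tested (quasi-likelihood test of edgeR, Benjamini-Hochberg adjusted). At the thresholds the study used, an unadjusted p under 0.05 and a change of more than 2-fold, 370 genes passed (2.69%), of which 169 were higher (1.23%) and 201 lower (1.46%) in Scx-/- lung. In data simulated at the depths of these libraries, the same thresholds called 445 of 12380 genes that had no change built in. An unadjusted p under 0.05 alone was reached by 380 genes (2.76%). Of the 201 lower genes, 152 had no count in any Scx-/- library, and of the 169 higher genes, 109 had none in any wild-type library. The median count over all 6 libraries was 17 for the lower and 24 for the higher genes. The split by direction depended on the scaling and on single libraries: with TMM factors, used throughout for fold changes, the median log2 change over all genes was 0.18, and with library totals it was −0.01, where 135 genes were higher and 363 lower. DESeq2 placed 136 higher and 245 lower, and RLE scaling 178 higher and 287 lower. Without wild-type replicate 1, 480 genes passed (280 higher and 200 lower). Without wild-type replicates 2 and 3 the numbers were 214 (79 higher and 135 lower) and 215 (78 and 137). Leaving out Scx-/- replicates 1, 2, and 3 gave 215 (115 higher and 100 lower), 195 (110 and 85), and 216 (111 and 105), so more genes were higher than lower there, as without wild-type replicate 1. The numbers of genes with the 3 values of one genotype all above those of the other were 464 higher (3.38%) and 348 lower (2.53%) in Scx-/- lung. The balance turned among the 4120 genes with a mean of at least 50 CPM, with 191 higher (4.64%) and 235 lower (5.7%).

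**Figure D1:**
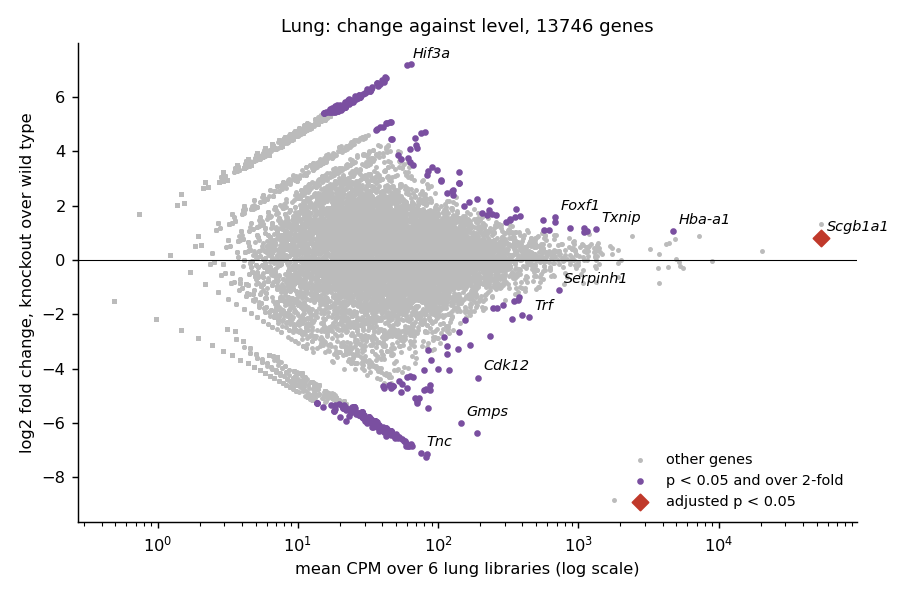
Log2 fold change of Scx-/- over wild-type lung (vertical axis) against mean CPM over the 6 lung libraries (horizontal axis, log scale) for 13746 genes, with the 370 genes past the study's thresholds in purple and Scgb1a1 as a red diamond. The narrow bands at the upper and lower left are genes with few counts in one genotype and at or near 0 in the other, whose fitted changes depend on the prior count, and Scgb1a1 lies at the far right with a log2 change of 0.81.

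Among airway genes, the main club cell product rose in Scx-/- lung. Scgb1a1 encodes the major secretoglobin of club cells. It lay at 50140, 36010, and 42900 CPM in wild-type lung and at 64460, 60820, and 69170 CPM in Scx-/- lung. All 3 Scx-/- values exceeded all 3 wild-type values, and the gene held 3.60% to 5.01% of all counts in wild-type libraries and 6.08% to 6.92% in Scx-/- libraries. The Wilson 95% interval of these shares was widest in wild-type replicate 3, from 4.12% to 4.47%. The fitted rise was 0.81 ± 0.12 on the log2 scale (SE), or 1.76-fold, with an adjusted p = 2.52e-07 in the quasi-likelihood test of edgeR. With CPM divided by the TMM factors of that fit, wild-type lung spread from 28300 to 57900 CPM and Scx-/- lung from 68800 to 73300 CPM. The SE of that fit draws on other genes too, and DESeq2 and the joint fit gave larger ones. With library totals it was 1.51-fold and with RLE scaling 1.69-fold. The adjusted p stayed below 0.05 when each library was left out (highest 0.0376, without wild-type replicate 2, where the log2 change was 0.61). It did not pass in DESeq2 (log2 change 0.76 ± 0.25, SE, adjusted p = 0.993) or when all 32 tissue and genotype groups shared one dispersion fit (log2 change 0.81 ± 0.79, SE, adjusted p = 1.0). The gene lies at chr19:9083636-9087958 on the minus strand of GRCm38.

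Cbr2, a carbonyl reductase abundant in club and alveolar epithelium, also separated the genotypes. Its level was 4003, 4194, and 3854 CPM in wild-type and 5579, 5144, and 6477 CPM in Scx-/- lung. The log2 change was 0.76 ± 0.25 (SE), below the study's 2-fold threshold and with an adjusted p of 0.74 in the quasi-likelihood test of edgeR. Of the 18 genes in the list of club cell and airway secretory genes, all were measured, 1 passed the adjusted threshold, and none passed the study's thresholds. The list's median log2 change was 0.49, against 0.18 over all genes tested. Of its 10 members with a mean of at least 50 CPM, all had a positive log2 change with TMM factors and 7 with library totals, where 2201 and 1789 of all 4120 genes at this level had. Of the 10 members 2 were higher without overlap, where 4.64% of all genes at this level were. Their median was 0.45, against 0.08 over all 4120 genes at this level. The summed level of the list was 61350, 44150, and 54660 CPM in wild-type and 77030, 72000, and 84280 CPM in Scx-/- lung, with no overlap, and Scgb1a1 held most of its counts. Scgb3a2, a second secretoglobin, overlapped between genotypes in CPM (1313, 899, and 1673 CPM against 1471, 1306, and 1733 CPM) but not on the TMM scale, and Cyp2f2, a cytochrome P450 of club cells, overlapped on both.

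Ciliated cell genes held 2 of the genes past the study's thresholds, out of 18 measured of 19 listed, and both were higher in Scx-/- lung, as were 1.23% of all genes tested. Tmem212, a membrane protein found in ciliated cells, had 8.77, 0, and 0 CPM in wild-type and 107, 26.4, and 345 CPM in Scx-/- lung. Fam183b was listed at 0 in all wild-type libraries and at 24.8, 35.2, and 46.6 CPM in Scx-/- lung, at least 5.17-fold higher, or 1.17-fold without wild-type replicate 1. The call for Fam183b was lost with any of the 6 libraries left out, with library totals, and with DESeq2. That for Tmem212 was lost without Scx-/- replicate 3. Foxj1, the factor that directs formation of motile cilia, overlapped between genotypes (17.6, 128, and 18.8 CPM against 66.1, 61.6, and 131 CPM). The summed level of the list was 702, 578, and 884 CPM in wild-type and 1008, 791, and 1361 CPM in Scx-/- lung, overlapping in CPM, and separated when each library's CPM was divided by its TMM factor.

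Alveolar genes showed no call in either direction. Of the type 2 cell list, 16 of 18 genes were measured and none passed either threshold, with a median log2 change of 0.24. Sftpc, which encodes surfactant protein C, lay at 20530, 20860, and 17560 CPM in wild-type and 22110, 17460, and 23260 CPM in Scx-/- lung, and its groups overlapped. Sftpa1, which encodes surfactant protein A, had 4190, 3980, and 3308 CPM against 3661, 5122, and 6179 CPM. The summed type 2 level was 29660 ± 2890 CPM in wild-type and 31830 ± 4286 CPM in Scx-/- lung (SD, n = 3 each). Among type 1 cell genes, 15 of 17 were measured, none passed, and the median was 0.32. Of 22 genes of surfactant lipid synthesis and transport, 1 passed the study's thresholds and was lower, as were 1.46% of all genes tested. This was Dgat2, an enzyme of triglyceride synthesis. It lay at 23.4, 0, and 150 CPM in wild-type lung and at 0 in all Scx-/- libraries, and lost its call without wild-type replicate 3 or any single Scx-/- library.

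**Figure D2:**
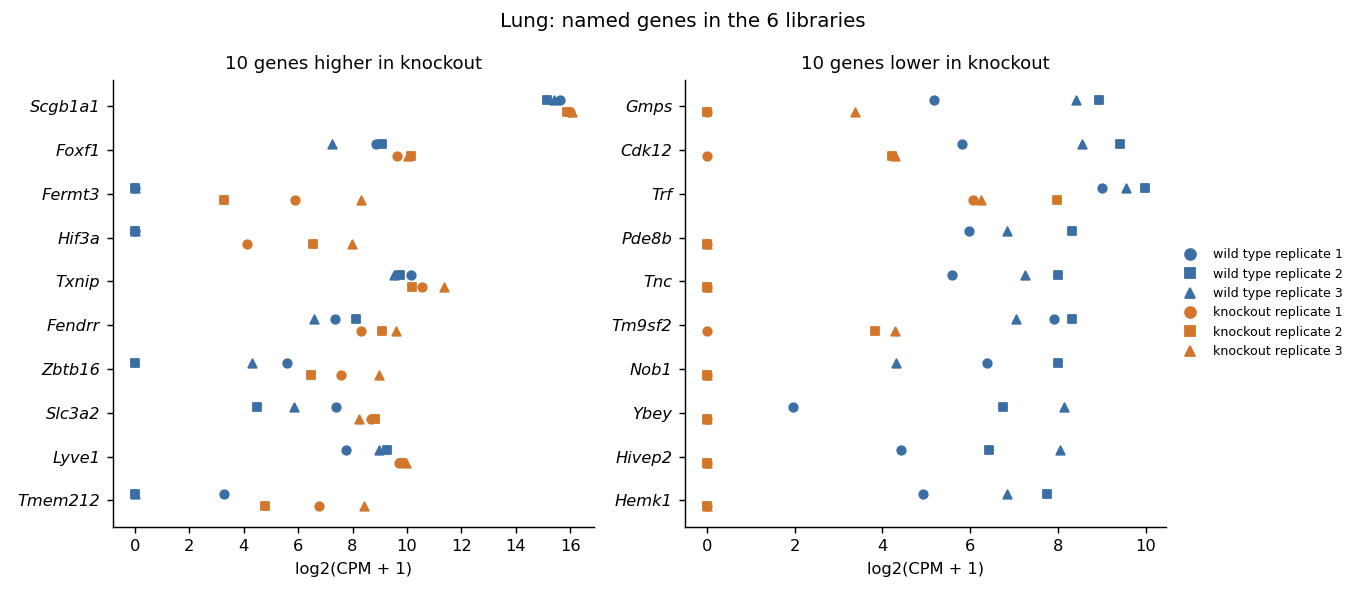
Level of 20 named genes as log2(CPM + 1) in each of the 6 lung libraries, wild type in blue and Scx-/- in orange, with a marker shape per replicate. Higher genes are on the left and lower genes on the right, and 6 of the 10 lower genes lie at 0 in every Scx-/- library. Genes were chosen to have no overlap between the genotypes.

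Foxf1 and Fendrr, neighbouring genes of the lung mesenchyme, were both higher in Scx-/- lung. Foxf1 encodes a forkhead transcription factor required for lung mesenchyme and its vessels. Its level was 465, 535, and 150 CPM in wild-type and 793, 1134, and 1044 CPM in Scx-/- lung. The groups did not overlap, which the rule for the 20 plotted genes required. The log2 change was 1.58 ± 0.50 (SE). The adjusted p of the quasi-likelihood test of edgeR was 0.74, the value shared by all 9 higher and 10 lower genes described here beside Scgb1a1. Fendrr, a long noncoding RNA transcribed away from Foxf1, lay at 164, 278, and 94.0 CPM in wild-type and 314, 545, and 764 CPM in Scx-/- lung, a log2 change of 1.86 ± 0.66 (SE). The call for Foxf1 was kept with every library left out, and that for Fendrr was lost without Scx-/- replicate 3. Foxf1 occupies chr8:121084386-121088144 on the plus strand and Fendrr chr8:121054882-121083110 on the minus strand of GRCm38, with 1276 bases between their starts. Gm20388, annotated on the plus strand, overlaps both. Strand cannot tell its reads from those of Foxf1, which lies on the same strand. It could tell them from those of Fendrr only in stranded counting, and the strand setting was not stated in the sources used. Of the 20 genes in the plot of named genes, 11 overlap an annotated gene on the opposite strand.

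Because the comparison is of a knockout of an E-box factor, the 250 bases upstream of the named genes were searched for CANNTG, the general E-box, which reads the same on both strands. Promoter sequences from RefSeq (GRCm38.p6) were found for 14 of the 20 named genes, some with several windows. At least 1 match was held by 9 of their 19 windows, against 66.2% of all 32851 windows of the same length. Counted by gene, 7 of the 14 held a match in any window, against 69.3% of all 27025 genes with an entry. No entry was found for Scgb1a1, Foxf1, Zbtb16, Lyve1, Trf, or Ybey. The window of Fendrr, chr8:121083111-121083360 on the minus strand, lies between the starts of Fendrr and Foxf1 and is shown because both genes were higher. It holds no CANNTG and is written 5′ to 3′ toward the start of Fendrr.
Fendrr: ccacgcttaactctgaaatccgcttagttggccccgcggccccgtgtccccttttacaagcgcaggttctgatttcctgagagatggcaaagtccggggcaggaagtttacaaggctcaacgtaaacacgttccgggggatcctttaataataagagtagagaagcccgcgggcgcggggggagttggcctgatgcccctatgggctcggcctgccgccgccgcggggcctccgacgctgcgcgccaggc

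Vessel genes as a list held no call by the study's thresholds. Of 26 listed endothelial genes 25 were measured, none passed, and the median log2 change was 0.53. With TMM factors 21 of the 25, all at 50 CPM or more, had a positive change and with library totals 17, against 2201 and 1789 of all 4120 genes at this level. Epas1, a hypoxia-inducible transcription factor abundant in lung endothelium, had 2278, 1947, and 1372 CPM in wild-type and 2860, 2752, and 3234 CPM in Scx-/- lung, without overlap, a log2 change of 0.87 ± 0.31 (SE). The summed endothelial level was 12930, 9950, and 11540 CPM against 13110, 13450, and 13960 CPM, and the groups overlapped once CPM was divided by the TMM factors. Lyve1, a hyaluronan receptor of lymphatic endothelium and of some macrophages, passed the study's thresholds. It lay at 214, 621, and 508 CPM in wild-type and 827, 906, and 988 CPM in Scx-/- lung, a log2 change of 1.39 ± 0.51 (SE), and was called with every library left out. Hif3a, another member of the hypoxia-inducible factor family, was listed at 0 in all wild-type libraries and at 16.5, 92.3, and 252 CPM in Scx-/- lung, at least 16.2-fold higher against 3 counts over the wild-type group, a bound of 3.65-fold without wild-type replicate 1 and 9.72-fold without Scx-/- replicate 3. It too was called with every library left out.

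Matrix genes were read in lists by kind, and the difference between lists was not tested. Interstitial collagens and the proteins that process them were lower in Scx-/- lung as a summed level. Of 28 collagen and processing genes 27 were measured, 1 passed the study's thresholds and was lower (1.46% of all genes tested were), and the median log2 change was −0.31, against 0.18 over all genes. Of its 19 members at 50 CPM or more, 16 had a negative and 3 a positive change under TMM, RLE, and library-total scaling alike, where 2201, 2071, and 1789 of all 4120 genes at this level had a positive one. Of these members 5 had no overlap and were lower, where 5.7% of all genes at this level were. The summed level was 13810, 20800, and 18670 CPM in wild-type and 13170, 10560, and 9599 CPM in Scx-/- lung, a ratio of 0.626. The lowest wild-type and highest Scx-/- values lay close together, and the groups stayed apart on the TMM scale, where the ratio was 0.769.

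Serpinh1, the collagen chaperone of the endoplasmic reticulum, was the called member. It had 585, 1690, and 902 CPM in wild-type and 521, 255, and 401 CPM in Scx-/- lung, a log2 change of −1.10 ± 0.51 (SE), and lost its call without wild-type replicate 2 or Scx-/- replicates 2 or 3. Col3a1, the chain of type III collagen, lay at 1231, 1904, and 2369 CPM against 1074, 708, and 727 CPM, a log2 change of −0.82 ± 0.40 (SE). The groups of Col3a1 did not overlap, although its change was under 2-fold. Col1a2, a chain of type I collagen, had 1351, 1969, and 1541 CPM in wild-type and 1207, 1156, and 829 CPM in Scx-/- lung. Sparc, a matrix protein that binds collagen, had 6609, 6890, and 6579 CPM against 5041, 4686, and 3793 CPM. Both were lower without overlap in CPM and overlapped once CPM was divided by the TMM factors, with log2 changes of −0.31 ± 0.39 for Col1a2 and −0.31 ± 0.24 for Sparc (SE). Col1a1, the other chain of type I collagen, overlapped, at 658, 1690, and 1711 CPM against 992, 541, and 727 CPM. Wild-type replicate 1, by far the deepest library, had the lowest wild-type level of Serpinh1, Col3a1, Col1a2, and Col1a1.

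**Figure D3:**
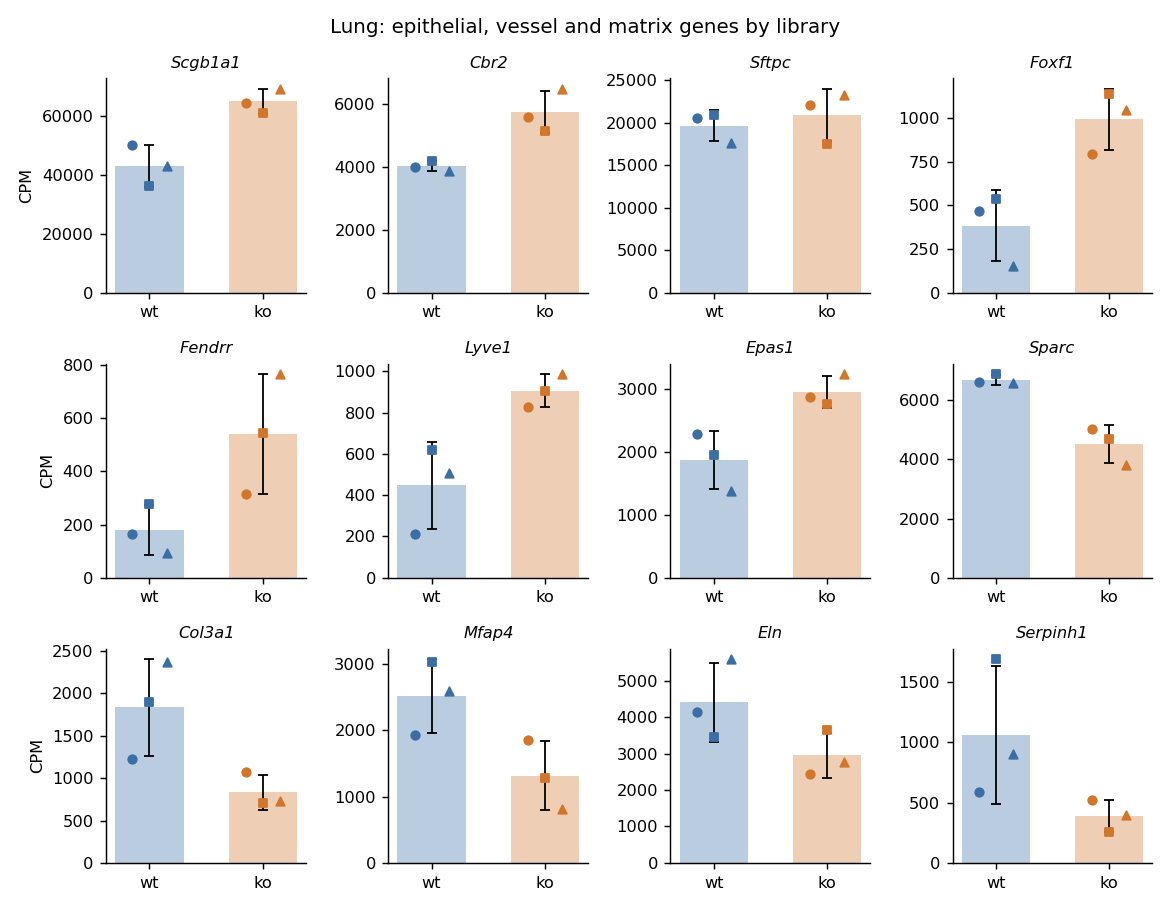
CPM of 12 lung genes in wild-type (wt, blue) and Scx-/- (ko, orange) lung, with a marker per replicate, bars for the mean, and error bars for the SD of 3 libraries. Scgb1a1, Cbr2, Foxf1, Fendrr, Lyve1, and Epas1 are higher without overlap, Sparc, Col3a1, Mfap4, and Serpinh1 lower without overlap in CPM, and Sftpc and Eln overlap.

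Elastic fibre genes showed a smaller difference that depended on the scaling. All 19 were measured, none passed, and the median log2 change was −0.19. Their summed level was 8665, 9073, and 11640 CPM in wild-type and 6422, 7535, and 6179 CPM in Scx-/- lung, without overlap in CPM and with overlap on the TMM scale. Mfap4, a microfibril protein, had 1924, 3039, and 2594 CPM against 1851, 1279, and 811 CPM, a log2 change of −0.63 ± 0.35 (SE). Eln, which encodes tropoelastin, overlapped at 4147, 3467, and 5602 CPM against 2455, 3653, and 2768 CPM. Basement membrane genes, all 22 measured, had a median of 0.45, and 2 passed and were higher, where 1.23% of all genes tested were and the median over all genes was 0.18. These were Lama2, a laminin chain, with 26.3, 21.4, and 0 CPM against 116, 145, and 196 CPM, and Col18a1, the core of a heparan sulphate proteoglycan, with 11.7, 0, and 0 CPM against 215, 39.6, and 46.6 CPM. Lama2 lost its call without wild-type replicate 3 or any single Scx-/- library, Col18a1 without any library except wild-type replicate 1, and both with library totals. Col4a1, a type IV collagen chain, overlapped and had a log2 change of −0.02 ± 0.34 (SE).

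Tnc was the called member of the tendon lineage list. It encodes tenascin-C, a matrix glycoprotein of tendon and of developing and repairing lung. Wild-type lung held 46.8, 257, and 150 CPM, from 16, 12, and 8 counts, and all Scx-/- libraries were at 0. Set against 3 counts over the Scx-/- group, Tnc was at least 12.4-fold lower (6.20-fold without Scx-/- replicate 2, and 30.4-fold without wild-type replicate 1), and it was called with every library left out. Of the 18 listed tendon genes 12 were measured, 1 passed and was lower (1.46% of all genes tested were), and the median log2 change was −0.38, against 0.18 over all genes. The defining tendon genes Tnmd, Kera, and Comp were listed at 0 in all 6 libraries, and only 2 of the 12, Tnc and Thbs4, had a mean of at least 50 CPM. Thbs4, a thrombospondin, lay at 2.92, 385, and 244 CPM against 116, 83.5, and 103 CPM, and overlapped. The window upstream of the annotated Tnc start, chr4:64047016-64047265 on the minus strand, is shown because Tnc is a matrix gene of the tendon list and the window holds 3 CANNTG matches, in capitals.
Tnc: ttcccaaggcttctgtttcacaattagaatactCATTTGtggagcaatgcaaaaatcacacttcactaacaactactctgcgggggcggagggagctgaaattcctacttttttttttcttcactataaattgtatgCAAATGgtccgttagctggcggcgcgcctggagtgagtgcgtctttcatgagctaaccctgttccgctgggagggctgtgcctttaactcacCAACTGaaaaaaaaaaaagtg

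Genes that respond to glucocorticoids, and the clock genes, were higher as summed levels. Of 21 glucocorticoid-responsive genes 18 were measured, 2 passed and were higher (1.23% of all genes tested were), and the median log2 change was 0.91, against 0.18 over all genes. Txnip, an inhibitor of thioredoxin whose transcription also follows glucose, lay at 1129, 856, and 733 CPM in wild-type and 1504, 1161, and 2609 CPM in Scx-/- lung. The log2 change was 1.13 ± 0.39 (SE) without overlap, and the call was lost with library totals and without wild-type replicates 2 or 3 or Scx-/- replicate 3. Zbtb16, a zinc finger transcription factor, had 46.8, 0, and 18.8 CPM against 190, 87.9, and 503 CPM, a log2 change of 3.24 ± 1.16 (SE). With wild-type replicate 1 left out the change was 4.91, and with Scx-/- replicate 3 left out it was 2.48 and the call was lost. Tsc22d3, a widely used marker of glucocorticoid exposure, overlapped at 1111, 1006, and 1090 CPM against 1132, 1099, and 1696 CPM, and so did Klf9. The summed level of the list was 5126, 5820, and 4380 CPM in wild-type and 5884, 5821, and 9581 CPM in Scx-/- lung, with Scx-/- replicate 3 well above the other 5 libraries and the highest wild-type value next to the lowest Scx-/- value.
The window upstream of Txnip, chr3:96557707-96557956 on the plus strand, is shown because Txnip had the same direction in most other tissues, given further on. It holds no CANNTG.
Txnip: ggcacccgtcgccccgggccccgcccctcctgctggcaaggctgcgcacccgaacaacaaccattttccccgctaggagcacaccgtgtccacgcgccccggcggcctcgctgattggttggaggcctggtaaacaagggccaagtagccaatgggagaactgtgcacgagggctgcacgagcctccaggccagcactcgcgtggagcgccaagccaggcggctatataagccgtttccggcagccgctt

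Of 19 clock genes 17 were measured and none passed, with a median log2 change of 1.07. Per1, a repressor of the clock, lay at 90.7, 21.4, and 56.4 CPM in wild-type and 190, 114, and 186 CPM in Scx-/- lung, without overlap. Per2, its paralog, overlapped at 76.0, 171, and 56.4 CPM against 174, 13.2, and 46.6 CPM. The summed clock level was 655, 578, and 526 CPM against 950.4, 743, and 932 CPM, and stayed apart on the TMM scale. The time of day at which tissues were taken was not stated in the sources used. Of 20 measured immediate early genes, which include genes that respond to dissection, 1 passed and was higher, as were 1.23% of all genes tested. This was Btg2 (146, 0, and 207 CPM against 256, 391, and 345 CPM), and the list's summed levels overlapped. Btg2 lost its call without wild-type replicate 2 or any single Scx-/- library, and with library totals and DESeq2.

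Chaperone genes were lower as summed CPM. Hspa8, the constitutive cytosolic Hsp70 chaperone, had 643, 42.8, and 1034 CPM in wild-type and 16.5, 242, and 37.3 CPM in Scx-/- lung. The groups overlapped because wild-type replicate 2 was low, the log2 change was −2.19 ± 0.71 (SE), and the call by the study's thresholds held with every library left out. Without Scx-/- replicate 2 the log2 change was −4.30. Hspa8 was the only one of 15 measured heat shock and cold-inducible genes to pass, where 1.46% of all genes tested were called lower, and the list's median was −0.38. Of 17 measured chaperones of the endoplasmic reticulum none passed, with a median of −0.40. Calr, a lectin chaperone, had 746, 899, and 808 CPM against 504, 237, and 643 CPM, and Hspa5, the Hsp70 of that compartment, had 623, 514, and 1034 CPM against 405, 154, and 373 CPM, both lower without overlap in CPM. On the TMM scale Hspa5 and the summed levels of both chaperone lists overlapped.

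**Figure D4:**
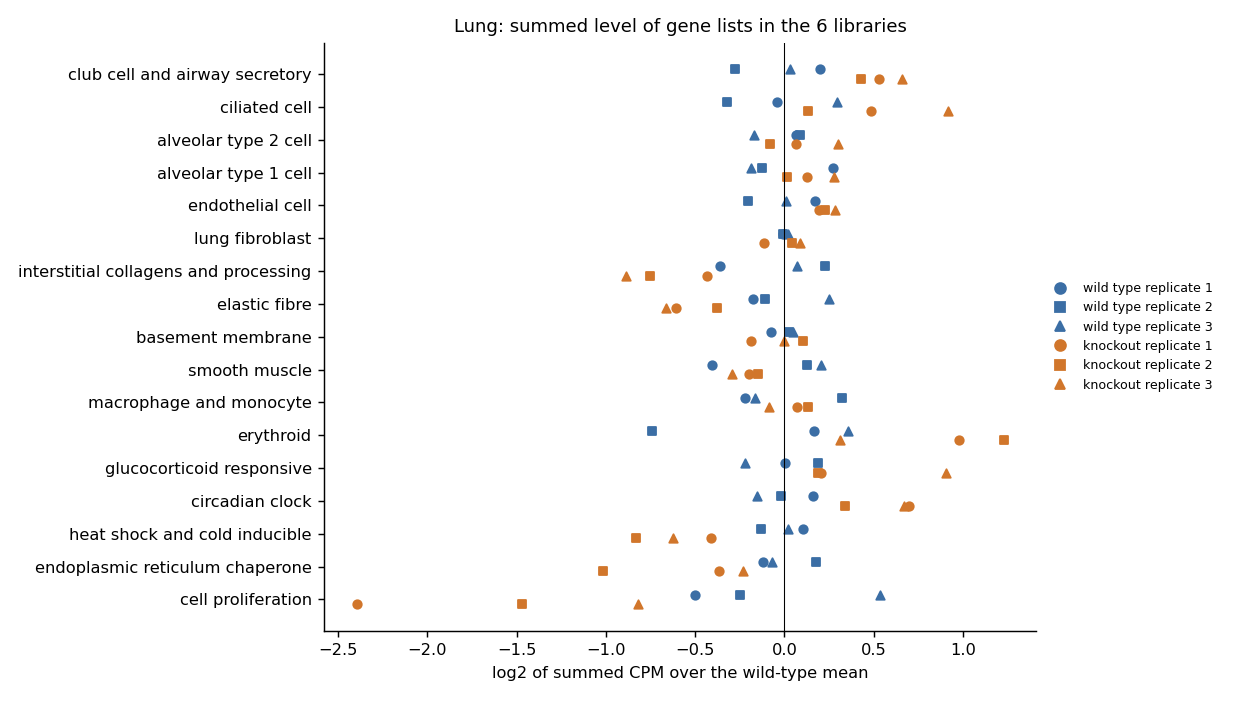
Summed CPM of 17 gene lists in each lung library, as the log2 ratio to the wild-type mean of that list, wild type in blue and Scx-/- in orange with a marker shape per replicate. The groups are apart and higher in Scx-/- for club cell, endothelial, glucocorticoid, and clock genes, and apart and lower for collagen, elastic fibre, both chaperone, and proliferation genes, and they overlap for the other 8 lists.

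Over all 43 lists with a measured gene, 4 had summed CPM higher and 7 lower in Scx-/- lung without overlap, the 7 being the 5 lower ones plotted, kidney tubule genes, and respiratory chain genes. With CPM divided by the TMM factors these numbers were 4 and 3, and 3 lists in each direction were shared. The shared lists were club cell, glucocorticoid-responsive, and clock genes among the higher and collagen, proliferation, and kidney tubule genes among the lower, the last carried by Aqp1 and Napsa, which lung also expresses. Proliferation genes were scarce. Of 29 listed 26 were measured, their summed level was 430, 514, and 884 CPM in wild-type and 116, 220, and 345 CPM in Scx-/- lung, and the median log2 change was −1.59, against 0.18 over all genes. Only 1 of the 26 had a mean of at least 50 CPM, so this median rests on genes near the floor. That gene, Mcm6, had a log2 change of 0.62, with all its Scx-/- counts in replicate 3. The 2 called members, both lower (1.46% of all genes tested were), were Mki67, which had 263 CPM in wild-type replicate 3 and 0 in the other 5 libraries, and Ube2c, at 73.1, 21.4, and 132 CPM against 0 in all Scx-/- libraries. Both calls were lost without Scx-/- replicate 2, and that of Mki67 also without wild-type replicate 3.

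Among the immune lists, called genes lay in the macrophage and monocyte list and in the neutrophil list. All 28 macrophage and monocyte genes were measured, 2 were called higher and 1 lower, where 1.23% and 1.46% of all genes tested were, and the median log2 change was 0.20, close to the 0.18 over all genes. Chil3, a chitinase-like protein of alveolar macrophages, lay at 559, 1006, and 263 CPM against 1331, 875, and 1221 CPM and overlapped in CPM but not on the TMM scale, and its call was lost without wild-type replicate 3 or Scx-/- replicate 1 and with library totals. Lyz1, a lysozyme, was higher without overlap at 626, 856, and 996 CPM against 1769, 1235, and 1109 CPM, although the call was lost with library totals, RLE scaling, and DESeq2, and without wild-type replicate 2 or Scx-/- replicate 1, and Lyz1 shares sequence with its paralog Lyz2. Plac8 was lower at 79.0, 471, and 113 CPM against 0, 35.2, and 0 CPM. Among neutrophil genes 13 of 18 were measured and 2 were called lower, where 1.46% of all genes tested were, the granule genes Ngp (5.85, 150, and 188 CPM against 0 in every Scx-/- library) and Camp (5.85, 385, and 0 CPM against 0, 8.79, and 0 CPM). The calls of Plac8 and Camp were lost without wild-type replicate 2 or Scx-/- replicates 1 or 3, and that of Ngp was kept with every library left out. The neutrophil genes S100a8 and S100a9 did not pass, and the primary granule genes Elane, Mpo, and Prtn3 were listed at 0. No B cell gene (10 of 19 measured) and no T or natural killer cell gene (12 of 20 measured) passed. Fermt3, an integrin activator of blood cells, was at 0 in wild-type lung and at 57.9, 8.79, and 317 CPM in Scx-/- lung, at least 13.9-fold higher. That bound was 3.14-fold without wild-type replicate 1, 3.80-fold without Scx-/- replicate 3, where the call was lost, and 26.5-fold without Scx-/- replicate 2. Slc3a2, a subunit of amino acid transporters, belongs to none of the lists. It lay at 167, 21.4, and 56.4 CPM against 405, 457, and 298 CPM, a log2 change of 2.19 ± 0.80 (SE). It lost its call without Scx-/- replicate 2, and the log2 change was 3.71 without wild-type replicate 1.

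The remaining lower genes were not united by a list. Gmps, an enzyme of guanine nucleotide synthesis, had 35.1, 492, and 338 CPM in wild-type and 0, 0, and 9.32 CPM in Scx-/- lung. Cdk12, a kinase of transcribing RNA polymerase II, had 55.6, 685, and 376 CPM against 0, 17.6, and 18.6 CPM. In both, the deep wild-type replicate 1 was the lowest of the wild-type libraries and above every Scx-/- library. Tm9sf2, a membrane protein of endosomes and Golgi, was more even, at 239.8, 321, and 132 CPM against 0, 13.2, and 18.6 CPM, with a log2 change of −4.06 ± 1.44 (SE). Pde8b, a cyclic AMP phosphodiesterase, had 61.4, 321, and 113 CPM in wild-type lung and 0 in Scx-/- lung, at least 14.4-fold lower. Nob1, Ybey, Hivep2, and Hemk1 were likewise at 0 in all Scx-/- libraries, with bounds of at least 14.1-fold, 7.22-fold, 8.60-fold, and 8.94-fold lower. Without Scx-/- replicate 2, the deepest of its group, the bounds of Pde8b, Nob1, Ybey, Hivep2, and Hemk1 were 7.23-fold, 7.06-fold, 3.62-fold, 4.31-fold, and 4.48-fold. Without wild-type replicate 3 those of Ybey and Hivep2 were 2.35-fold and 4.30-fold, and without wild-type replicate 1 the bounds of Pde8b, Ybey, Hivep2, and Hemk1 rose to between 24.3-fold and 31.9-fold. Nob1 and Ybey act in ribosomal RNA maturation, Hivep2 is a zinc finger transcription factor, and Hemk1 a methyltransferase. Ybey and Hivep2 lost their calls without wild-type replicate 3, and the other lower genes of this paragraph kept theirs with every library left out. Over all 201 lower genes, wild-type replicate 1 was below both other wild-type libraries in 42 (20.9%), against 8.62% of all genes tested, 20.4% of the 4120 genes at 50 CPM or more, and 1.78% of the 169 higher genes.

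Trf, which encodes the plasma iron carrier transferrin, lay at 512, 1006, and 752 CPM in wild-type and 66.1, 251, and 74.6 CPM in Scx-/- lung. Every Scx-/- value was below every wild-type value, as the rule for naming it required. The log2 change was −2.12 ± 0.64 (SE), or −3.19 without Scx-/- replicate 2, and the call was kept with every library left out. Trf belongs to a list of plasma proteins made by hepatocytes, of which 16 of 18 were measured, 2 passed and were lower (1.46% of all genes tested were), and 6 had a mean of at least 50 CPM, all with negative changes, as had 1919 of all 4120 genes at this level. The other called member was Ttr, a carrier of thyroid hormone, with 143, 749, and 37.6 CPM against 16.5, 17.6, and 46.6 CPM, and its call was lost without wild-type replicate 2. The list's summed level was 1335 to 4344 CPM in wild-type and 554 to 1464 CPM in Scx-/- lung, with Mup3 and Mup20 at 0, and Alb, the albumin gene, at 594, 813, and 395 CPM against 215, 602, and 326 CPM. Its part in the level of Trf was not tested.

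The share of blood RNA varied between libraries and overlapped between genotypes. Globin genes took 5.38%, 2.81%, and 6.10% of the counts in wild-type and 9.40%, 11.2%, and 5.90% in Scx-/- libraries (two-sided exact permutation p = 0.2). Of 18 erythroid genes 16 were measured, 3 were called higher and 1 lower, where 1.23% and 1.46% of all genes tested were, and the median log2 change was 1.25, against 0.18 over all genes. Hba-a1, an alpha globin gene, had 4381, 2589, and 3233 CPM against 6851, 8001, and 3439 CPM, a log2 change of 1.07 ± 0.25 (SE) with an adjusted p of 0.0859 in the quasi-likelihood test of edgeR. Alas2, the erythroid enzyme of heme synthesis, had 678, 621, and 996 CPM against 1496, 1851, and 913 CPM. The calls of Hba-a1 and Alas2 were lost with library totals and without wild-type replicate 2 or Scx-/- replicate 2, and that of Hba-a1 also without wild-type replicate 3. Hbb-b1, the most abundant beta globin gene, was higher without overlap at 43300, 12130, and 47800 CPM against 75880, 95000, and 48530 CPM, with a log2 change of 1.31 ± 0.76 (SE), and passed no threshold. Hbb-b2 overlapped at 6083, 1626, and 9211 CPM against 11230, 8867, and 6291 CPM. Other beta globin genes differed between libraries of one genotype, since Hbb-bs was at 10740 CPM in wild-type replicate 2 and at 16.5 CPM or less in the other 5 libraries, and Hbb-bt, the member called lower, was at 1006 CPM in that library and lost its call without it. Over the series, Hbb-bs was highest in wild-type replicate 2 in 16 of 16 tissues and Hbb-bt in 15 of 16. The pattern thus belongs to that replicate number and not to genotype, and its cause was not tested. Globin genes also have near-identical copies, so the split of reads between them is uncertain. With the globin genes left out, an alternative chosen after seeing the data, the log2 change of Scgb1a1 was 0.81 (adjusted p = 2.75e-07, the quasi-likelihood test of edgeR) and 374 genes passed the study's thresholds.

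The libraries also differed in sex-linked genes and in traces of muscle. Xist was at 746, 0, and 320 CPM in wild-type and 719, 0, and 0 CPM in Scx-/- lung, and the 4 Y-linked genes of the list did not follow one genotype. Ddx3y and Eif2s3y were at 0 in every wild-type library and highest in Scx-/- replicates 2 and 3 (110 and 121 CPM for Ddx3y). Kdm5d lay at 26.3, 21.4, and 0 CPM and Uty at 0, 42.8, and 0 CPM in wild-type lung, and both were at 0 in every Scx-/- library. Ddx3y and Eif2s3y were called higher, Ddx3y except without wild-type replicate 1 and Eif2s3y except without Scx-/- replicate 2, and Kdm5d and Uty passed no threshold. With the 6 sex-linked genes left out 368 genes passed the study's thresholds and Scgb1a1 remained the single gene with an adjusted p under 0.05. Skeletal muscle genes summed to 240 CPM in wild-type replicate 1 and to 1926 to 9052 CPM in the other 5 libraries, and cardiac muscle genes, which pulmonary veins of mice express, to 1023, 1712, and 2143 CPM against 769, 1235, and 1072 CPM. None of the 16 measured skeletal and 24 measured cardiac genes passed the study's thresholds. The part of these in the results was not tested.

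Several lists showed no gene past the study's thresholds in either direction. These were BMP and TGF-beta signaling (34 of 36 measured, median log2 change 0.30), lung fibroblast genes (24 of 24, 0.41), smooth muscle genes (18 of 18, 0.18), pericyte genes (12 of 12, 0.24), genes of hypoxia and glycolysis (19 of 23, 0.12), interferon-responsive genes (18 of 24, −0.64), and nuclear-encoded genes of the respiratory chain (78 of 85, 0.03). The summed CPM of the respiratory chain list was lower in Scx-/- lung without overlap (10640, 11210, and 10880 CPM against 9744, 9157, and 10520 CPM, a ratio of 0.899) and overlapped on the TMM scale. Lung fibroblast genes summed to 14290 ± 158 CPM in wild-type and 14370 ± 1033 CPM in Scx-/- lung (SD, n = 3 each), with Inmt, a methyltransferase of lung stroma, at 3559, 3638, and 4173 CPM against 3752, 4774, and 5527 CPM. Acta2, the smooth muscle actin gene, was lower without overlap in CPM, though not on the TMM scale, at 389, 599, and 432 CPM against 265, 329.7, and 289 CPM, with a log2 change of −0.38 ± 0.64 (SE). Of 75 measured genes listed as cytosolic ribosomal protein genes, 1 was called lower and 1 higher, close to the 1.46% and 1.23% of all genes tested. Rpl29 was the lower, at 17.6, 0, and 113 CPM against 0 in every Scx-/- library. The higher, Rpl32l, is annotated as a processed pseudogene and had all its counts in Scx-/- replicate 3 (168 CPM). Neither was called by DESeq2, the call for Rpl29 was lost without any single library except wild-type replicate 2, and that for Rpl32l without Scx-/- replicate 3 or any single wild-type library.

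The change in lung was set against the mean change of the other 15 tissues in one fit over all 96 libraries. Of the 13459 genes entered, 9201 could not be fitted (a standard error of 10 or more on the log2 scale), Scgb1a1, Foxf1, Hif3a, Fermt3, and Pde8b among them, and for these the fit says nothing of a difference. Of the other 4258 genes, 233 had an unadjusted p under 0.05 (5.47%, or 1.73% of all entered). None had an adjusted p under 0.05 in the quasi-likelihood test of edgeR, whether adjusted over all entered or over the 4258 alone, where the smallest was 0.704. The smallest p-values included those of Gmps and Tm9sf2, whose log2 changes in the other tissues had medians of 0.12 and −0.02. Foxf1 reached 10 CPM in 3 other tissues and Fendrr in 4, so their changes could be read in few places beside lung. Trf was higher in 7 and lower in 8 of 15 other tissues. Txnip was higher in Scx-/- in 13 of 15, with a median log2 change of 1.07, and 8 of the 15 passed the study's thresholds. Hspa8 was lower in 15 of 15, with a median of −1.06, and 1 passed. Serpinh1 was lower in 13 of 15, with a median of −0.83, and 5 passed. Hba-a1 was higher in 13 of 15 and Zbtb16 in 11 of 14. These tissues may come from the same mice as the lungs, since Hbb-bs was highest in the same-numbered wild-type replicate 2 in 16 of 16 tissues, so counts over tissues are not counts over animals. The joint fit took the 96 libraries as independent, so its p-values do not allow for shared mice.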

How the data were processed

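Total RNA of whole lungs was reverse transcribed with SuperScript II with barcoded primers and made into libraries with Nextera XT. Per the authors' notes, Bowtie2 with default settings aligned the reads to mm10, and HTSeq assigned them to genes. The deposited table holds raw counts, as whole numbers and not normalized. The labels describe the protocol as based on Smart-seq2 and the paper as 3′-enriched, so CPM is not comparable between genes of different transcript structure. The sources used here do not give tool versions, the gene annotation, the strand setting, or whether molecular identifiers were used.

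CPM was computed on library totals. Genotypes were compared with edgeR 4.0.16 (R 4.3.3), with TMM factors, robust dispersion estimates, and the quasi-likelihood test on genes with a count in any of the 6 lung libraries, and p-values were Benjamini-Hochberg adjusted over all 13746. DESeq2 1.42.0, the authors' tool, was an alternative. A positive log2 change is higher in Scx-/-. Fold bounds set a genotype without counts at 3 counts over the group. The change in lung was also compared with the other 15 tissues in a joint fit over all libraries, on the 13459 genes that passed filterByExpr there, and other tissues were each fitted as lung was. Single values per library were compared by exact permutation tests. Gene coordinates come from GENCODE vM21 on GRCm38, promoters from RefSeq, and Python 3.11.15 with pandas 2.3.3, scipy 1.17.1, and matplotlib 3.10.9 was used. The scripts were tested on data simulated with the depths of the lung libraries and a dispersion estimated from them. An adjusted p under 0.05 (quasi-likelihood test of edgeR) was reached there by 0 of 12380 unchanged genes. Of genes changed 2-fold, 4-fold, and 16-fold it was reached by 0 of 67, 0 of 67, and 15 of 66. The study's thresholds called 445 of the unchanged genes and 10, 18, and 46 of the changed ones. Absence of a call therefore does not show absence of a change.

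The genes named are Scx, the 10 largest rises and 10 largest falls with an adjusted p under 0.05, no overlap between genotypes, and at least 10 CPM, filled where fewer qualified with the genes of smallest unadjusted p past the study's thresholds, without overlap and with at least 50 CPM in the higher genotype. They also include called members and up to 4 abundant members of each list, the sex-linked genes, and 5 genes whose change differed most from other tissues, and not all are printed. A called erythroid gene is not reported here. Defining markers used for the tissue check or listed at 0 were named outside this rule, after their values were seen. The comparison and the gene lists were chosen with earlier results of these data known. Correlations of same-numbered deviations from the group means were 0.01 to 0.032, and those of differently numbered ones were −0.0388 to 0.0227. Counting noise in the shallow libraries can hide a shared batch, so these values do not settle whether replicate numbers pair the libraries.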

Additional observations from a re-analysis of the deposited data

How the results depend on the processing

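A single gene reached an adjusted p under 0.05 in edgeR's quasi-likelihood test. The number was 3 with RLE scaling, 5 with library totals, 2 with libraries thinned to 46732 counts, 0 with DESeq2 (389 genes at an unadjusted p under 0.05), 0 in the joint fit over 32 groups (541 at an unadjusted p under 0.05), and 1 to 4 with each library left out. Scgb1a1 was among them in each of these except DESeq2 and the joint fit. The 370 genes past the study's thresholds became 72 after filterByExpr, which left 2398 genes to test, and 195 to 480 with each library left out. With the replicate number as a block they became 92, with 1 gene at an adjusted p under 0.05, and whether the numbers pair the libraries was not settled. The share of higher genes among them was 45.7% with TMM factors, 27.1% with library totals, 35.7% with DESeq2, and 38.3% with RLE scaling. Higher genes were the majority after filterByExpr (54.2%), with the replicate block (58.7%), and without wild-type replicate 1 (58.3%) or Scx-/- replicates 1, 2, or 3 (53.5%, 56.4%, and 51.4%). The difference between lung and the other tissues gave 0 genes at an adjusted p under 0.05 in every fit run, but 9201 of 13459 genes could not be fitted, so that number says nothing of them or of stability, and over the 4258 others alone, an adjustment chosen after seeing the data, it was 0 as well (233 at an unadjusted p under 0.05). The mean number of genes detected per library was 4808 when 5 counts were required in place of 1, against 7294 in wild-type and 8267 in Scx-/- lung with 1. Group CPM of Scx in wild-type lung was 0 to 15.4 with each library left out, and 0 without wild-type replicate 1. No named gene past a threshold reversed its direction under the alternatives run, and the other called genes were not followed. The causes of these shifts were not tested. Depth limits low genes most: 8214 of 13746 genes held at most 30 counts over the 6 libraries.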
